A study of Mus musculus with 28 samples.

Results

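The genes described here encode the fatty acid oxidation machinery, in regulatory T cells (Tregs) sorted from mouse tumors and spleens. A list of 33 gene symbols defined the set, and a gene entered when its symbol had a row in the deposited table. That gave 29 members of 13103 genes in the table, and all 29 passed the filter on low values that left 12519 genes for testing. Cpt1a, which encodes the liver form of carnitine palmitoyltransferase 1, was not analysed here because no row carried its symbol or its identifiers. The same held for Acadsb, Acaa2 and Eci1, and no genes most like Cpt1a were therefore sought.

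Foxp3-GFP mice, in which green fluorescent protein (GFP) marks cells that express the Treg transcription factor Foxp3, received 500000 cells of the transplantable melanoma line B16 in the skin. Tumors and spleens of these mice were taken 7 to 10 days later, and cells positive for GFP and either high or low in surface OX40, a TNF receptor family member that costimulates T cells, were sorted by flow cytometry after staining for CD45, CD3, CD4 and OX40. The groups are named after the labels: tumor OX40plus and tumor OX40minus (4 mice each), and spleen OX40plus and spleen OX40minus (3 mice each). The titles give both gates of a tissue the same mouse numbers, which pairs them by animal. The main fit did not use this pairing, and a fit with the mouse as a replicate block was run as an alternative. All mice carried a B16 tumor, so the spleens are those of tumor-bearing animals, and the sources used here give no age or sex of the mice. Each mouse and gate had 2 libraries whose difference was near that of sampling noise, so they were averaged, which left 14 samples from 28 libraries.

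The samples held between 22.4 M and 29.6 M estimated counts each, so that 3 counts were equal to 0.104 to 0.13 CPM (read counts relative to the size of the library). Tnfrsf4, which encodes OX40, followed the gates, with mean levels of 253, 704, 1950 and 3357 CPM in spleen OX40minus, spleen OX40plus, tumor OX40minus and tumor OX40plus Tregs. Each of the 10 T cell and Treg markers examined, Cd8a and Cd8b1 among them, reached the level of 3 counts in at least 1 sample of every group. In tumors, Tnfrsf4 and Il2ra of this list were called higher and Cd8a and Cd4 lower in OX40plus Tregs. Markers of other cells were also present: the summed level of 13 macrophage or monocyte markers was 897 to 1134 CPM in spleen OX40minus, 114 to 229 in spleen OX40plus, 270.0 to 408 in tumor OX40minus and 74.5 to 82.1 in tumor OX40plus samples.

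Fatty acid oxidation breaks long carbon chains into acetyl-CoA inside mitochondria. Fatty acids are first joined to coenzyme A, carried across the inner membrane as carnitine esters, and then shortened in a repeating cycle of oxidation, hydration, a second oxidation and thiolysis. The electrons of the first oxidation pass through the electron transfer flavoprotein to the respiratory chain. Tregs are known to use fatty acids as fuel more than effector T cells do, and tumor Tregs are known to take up and store lipid.

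Most of the 29 members were higher in tumor than in spleen Tregs, which a list of other fatty acid oxidation genes, described below, did not show. The share of members that was higher in the OX40plus gate of the tumor (24.1%) was close to that of all genes (18.5%). The summed level of the 29 members was 1607 to 1839 CPM in spleen OX40minus, 1734 to 1973 in spleen OX40plus, 2461 to 2597 in tumor OX40minus and 2968 to 3215 in tumor OX40plus samples. The spleen gates overlapped in this sum, and the tumor gates did not overlap with each other or with the spleens. In 10 of the 29 members (Fabp5, Acsl5, Cpt2, Acadvl, Acadl, Acat1, Eci2, Ech1, Etfa and Etfb) the 4 group means rose in exactly that order. That is 34.5% of the members, while 15.8% of all genes tested had the same order. Because the RNA comes from sorted populations, fewer cells of a type and less RNA per cell cannot be told apart.

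**Figure D1:**
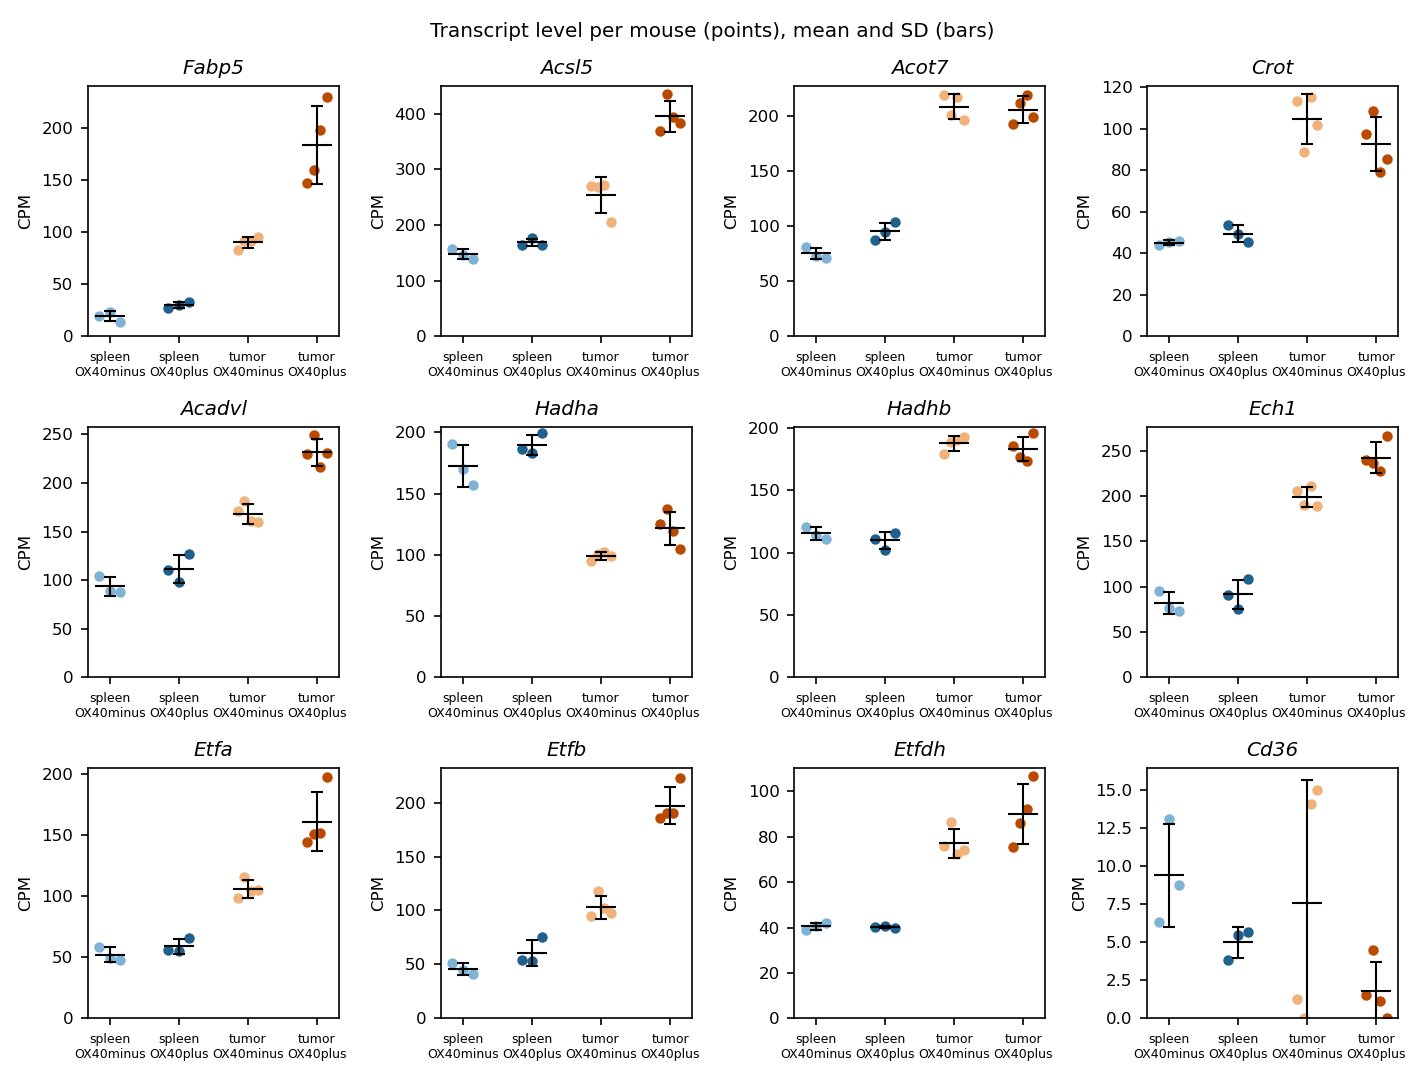
Transcript levels of 12 members in CPM (vertical axes, linear from 0) in the 4 groups (horizontal axes); each point is 1 mouse, and bars give the mean and SD. Fabp5, Acsl5, Acadvl, Ech1, Etfa and Etfb rise from spleen to tumor and are highest in tumor OX40plus Tregs, Hadha is lower in tumors, and Cd36 is low and scattered.

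Within tumors, 7 of 29 members were higher in OX40plus than in OX40minus Tregs at an adjusted p under 0.05: Fabp5, Etfb, Acsl5, Etfa, Acadvl, Hadha and Ech1. These are 24.1% of the members, where 18.5% of all genes were called higher, so the count is close to the background. The 2 groups overlapped in none of these 7, and 15.4% of all genes were likewise higher without overlap. No member was called lower with limma or with limma-voom, where limma called 20.0% of all genes lower. At an unadjusted p under 0.05, 9 members were higher and 0 lower, and the share of all genes at that cutoff was not counted. The median log2 difference was 0.16 over the 29 members and -0.08 over all genes tested.

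Within spleens, 2 of 29 members were higher in OX40plus Tregs, Fabp5 and Acot7, which is 6.9% of the members, near the 4.39% of all genes. No member was called lower by limma, where 3.59% of all genes were. At an unadjusted p under 0.05, 6 members were higher and 1, Acsl3, was lower, and the share of all genes at that cutoff was not counted. With limma-voom neither Fabp5 nor Acot7 passed (adjusted p = 0.107 and 0.0518), and no member was called in either direction. The median log2 difference was 0.08 over the members and 0.01 over all genes.

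**Figure D2:**
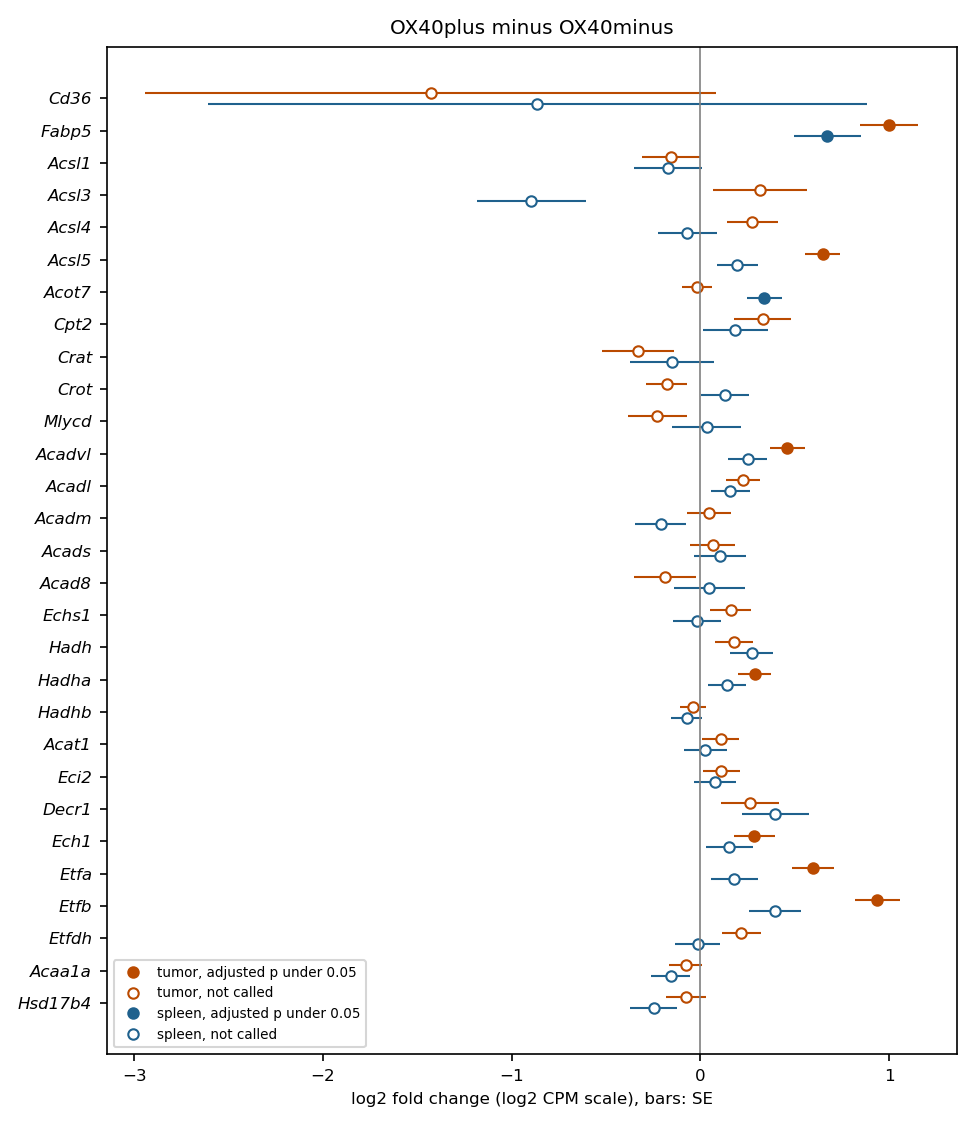
Log2 fold change of OX40plus over OX40minus Tregs (horizontal axis, log2 CPM scale) for the 29 members (vertical axis, in order of their role) in tumors and spleens. Bars are standard errors, and filled points have an adjusted p under 0.05: 7 members in tumors and 2 in spleens, all to the right of 0.

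Between tissues, 19 of 29 members were higher and 4 lower in tumor than in spleen among OX40plus Tregs. These are 65.5% and 13.8% of the members, where 30.3% of all genes were called higher and 34.2% lower. Among OX40minus Tregs 17 members (58.6%) were higher and 3 (10.3%) lower, where 29.7% of all genes were called higher and 29.3% lower. The median log2 difference of the members was 0.62 in OX40plus and 0.49 in OX40minus Tregs, while that of all genes was -0.13 and -0.03. Members called in either direction with no overlap of the groups numbered 21 (72.4%) among OX40plus and 20 (69.0%) among OX40minus Tregs, beside 59.6% and 56.7% of all genes. In both gates 16 members (55.2%) were called higher and 3 (10.3%: Mlycd, Acads and Hadha) lower, where 24.2% of all genes were higher and 24.8% lower in both. Cd36, Acad8, Hadh, Acaa1a and Hsd17b4 were called in neither. Each tissue comparison shares its samples with the OX40 comparisons, so these counts are not independent of each other.

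**Figure D3:**
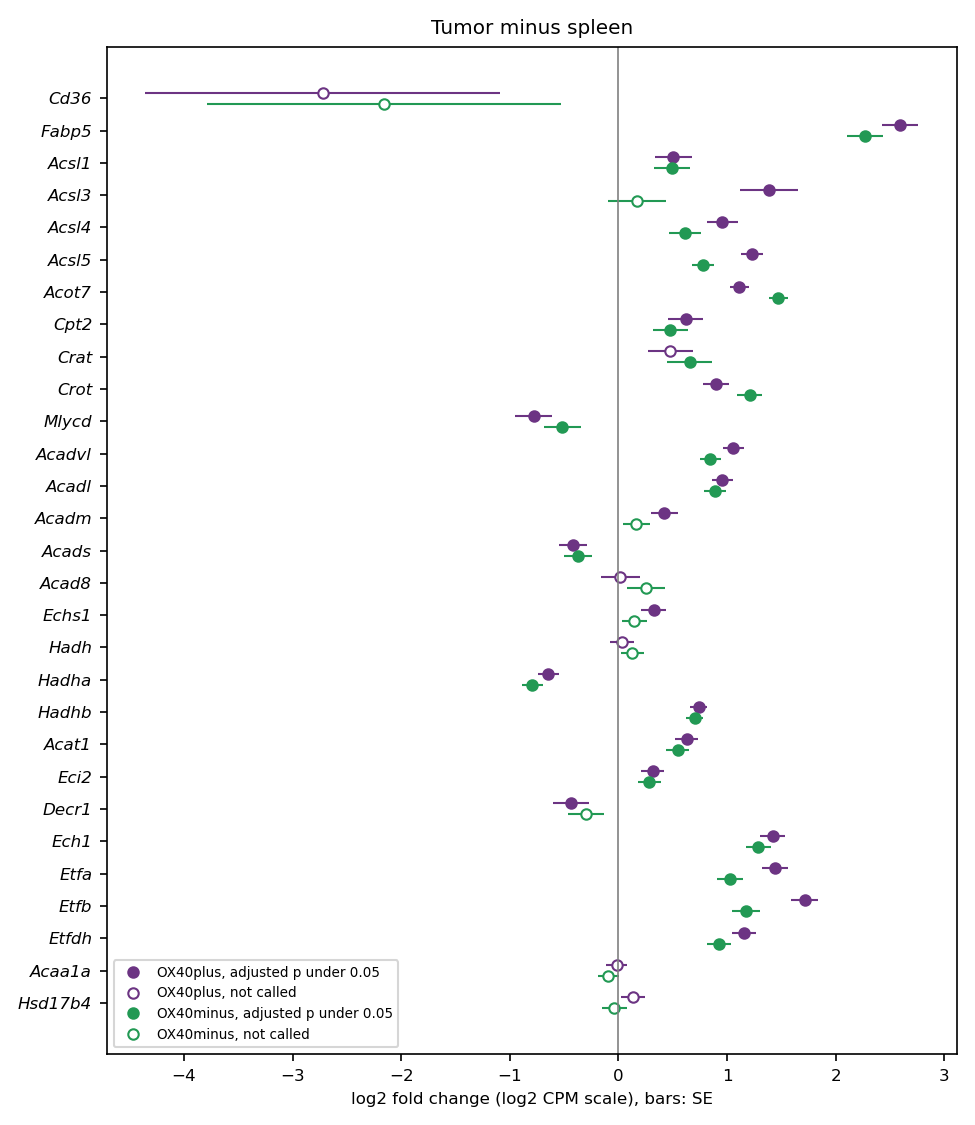
Log2 fold change of tumor over spleen Tregs (horizontal axis, log2 CPM scale) for the 29 members (vertical axis) within the OX40plus and the OX40minus gate. Bars are standard errors and filled points have an adjusted p under 0.05; Hadha, Mlycd and Acads lie left of 0 in both gates, and Fabp5 lies farthest to the right.

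Of the genes for uptake and binding, Fabp5, which encodes a small cytosolic carrier of fatty acids (chromosome 3, 10012548 to 10016607), changed in all 4 comparisons. It stood at 19.9, 23.5 and 14.2 CPM in the spleen OX40minus samples and at 27.3, 29.6 and 33.2 CPM in the spleen OX40plus samples. The tumor OX40minus samples had 83.1, 92.0, 91.5 and 95.4 CPM, and the tumor OX40plus samples 147, 159.6, 198 and 229.6 CPM. No 2 groups overlapped, and the lowest tumor sample lay above every spleen sample. The OX40 difference was 1.00 ± 0.15 (log2, SE) in tumors (adjusted p = 0.0001) and 0.67 ± 0.18 in spleens (adjusted p = 0.0265). Between tissues it was 2.60 ± 0.17 in OX40plus and 2.27 ± 0.17 in OX40minus Tregs. The call in spleens was lost when any of 4 spleen samples was left out, and without spleen OX40minus mouse 3 the difference was 0.47 (adjusted p = 0.153). Of the 31-base stretches in its transcripts, 9.21% also occur in another gene model, mostly Gm6166, and reads from these could be split.

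Cd36 (chromosome 5, 17781690 to 17888801), which encodes a membrane receptor that takes up long-chain fatty acids and lipoproteins, was at low levels in all groups. The spleen OX40minus samples had 6.35, 13.1 and 8.74 CPM and the spleen OX40plus samples 3.84, 5.46 and 5.68 CPM. In the tumor OX40minus samples it was 1.24, 0.036, 14.1 and 15 CPM, and in the tumor OX40plus samples 1.56, 4.5, 1.17 and 0 CPM. A tumor sample of each gate was thus below the level of 3 counts, while others of the OX40minus gate had more than 10 CPM. The spleen gates did not overlap. None of the comparisons was called: the OX40 difference in tumors was -1.43 ± 1.51 (adjusted p = 0.49) and that in spleens -0.86 ± 1.75 (adjusted p = 0.935). The variance behind these errors is shared by all 4 groups, and with the 2 spleen groups fitted alone the difference in spleens was -0.86 ± 0.28 (adjusted p = 0.0845). Macrophages also express Cd36, and the macrophage markers were lowest in the group with the lowest mean of Cd36. The part of other cells in its level was not tested.

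Acyl-CoA synthetases activate fatty acids by joining them to coenzyme A. Acsl5 (chromosome 19, 55251938 to 55297720), a long-chain synthetase, was called higher in tumors in both gates and, within tumors, in OX40plus Tregs. Its level was 157, 146 and 139 CPM in spleen OX40minus and 165, 177 and 165 CPM in spleen OX40plus samples. The tumor OX40minus samples had 270.3, 268, 271 and 206 CPM, and the tumor OX40plus samples 369.8, 435, 393 and 384 CPM. The tumor groups lay wholly above the spleens and did not overlap. The OX40 difference was 0.65 ± 0.09 in tumors (adjusted p = 5.1e-05) and 0.20 ± 0.11 in spleens (adjusted p = 0.395), and tumors exceeded spleens by 1.23 ± 0.10 in OX40plus and 0.78 ± 0.10 in OX40minus Tregs.

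Per kilobase of merged exons, the group means of the other synthetases were lower (1.31 to 20.1 CPM per kb) than those of Acsl5 (34.7 to 93.2 CPM per kb). Acsl4, which prefers arachidonic acid, was at 44.0 to 65.0 CPM in spleens and 68.0 to 117 CPM in tumors, and rose in tumors by 0.96 ± 0.15 in OX40plus and 0.61 ± 0.15 in OX40minus Tregs. Acsl1 rose in tumors by 0.51 ± 0.17 in OX40plus (adjusted p = 0.0147) and 0.49 ± 0.17 in OX40minus Tregs (adjusted p = 0.0193), from means of 13.5 and 15.2 CPM. Its call in OX40plus Tregs was lost with scaling by library size alone (adjusted p = 0.0506). That in OX40minus Tregs was lost with rep1 libraries only (adjusted p = 0.0881), and leaving out certain single samples also removed either call. Acsl3 had the largest interaction estimate of the members (the OX40 difference in tumors minus that in spleens), which did not pass the test. It had 8.84 to 9.86 CPM in spleen OX40minus, 3.75 to 6.68 in spleen OX40plus, 7.2 to 15.2 in tumor OX40minus and 10.9 to 18.1 in tumor OX40plus samples. Its tumor excess was called in OX40plus Tregs (1.39 ± 0.27, adjusted p = 0.000288) and not in OX40minus Tregs (0.17 ± 0.27, adjusted p = 0.603), and the difference between these contrasts did not pass (1.21 ± 0.38, adjusted p = 0.0529).

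Acot7 (chromosome 4, 152178134 to 152271855) encodes a thioesterase that reverses the activation step by splitting long-chain acyl-CoA. It was at 80.7, 73.2 and 71.2 CPM in spleen OX40minus and 87.2, 94.8 and 103 CPM in spleen OX40plus samples. The tumor OX40minus samples had 219, 201, 217 and 196 CPM and the tumor OX40plus samples 193, 211, 219 and 199 CPM. The tumor gates overlapped fully and both lay far above the spleens. The OX40 difference was -0.02 ± 0.08 in tumors (adjusted p = 0.889) and 0.34 ± 0.09 in spleens (adjusted p = 0.0293), and with the mouse as a replicate block the call in spleens was lost (adjusted p = 0.103). Tumors exceeded spleens by 1.47 ± 0.09 in OX40minus Tregs, where Acot7 had the smallest adjusted p of all members (6.5e-10), and by 1.11 ± 0.09 in OX40plus Tregs.

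The carnitine shuttle and its control had 4 measured members. Crot (chromosome 5, 8966033 to 8997324), a peroxisomal carnitine acyltransferase for medium-length chains, stood at 43.8, 45.6 and 45.9 CPM in spleen OX40minus and 53.5, 49.3 and 45.6 CPM in spleen OX40plus samples. It had 113, 88.8, 115 and 102 CPM in tumor OX40minus and 97.2, 109, 79.3 and 85.6 CPM in tumor OX40plus samples. Every tumor sample was above every spleen sample, and the gates overlapped within each tissue. Tumors exceeded spleens by 1.21 ± 0.12 in OX40minus (adjusted p = 3.01e-07) and 0.90 ± 0.12 in OX40plus Tregs (adjusted p = 5.8e-06). Cpt2, which releases fatty acids from carnitine on the matrix side, rose by 0.62 ± 0.16 and 0.48 ± 0.16 in OX40plus and OX40minus Tregs, to means of 33.8 and 26.6 CPM in tumors. Its call in OX40minus Tregs (adjusted p = 0.0187) was lost without spleen OX40minus mouse 2 (adjusted p = 0.0603) or mouse 3 (0.0651), or tumor OX40minus mouse 3 (0.0509). Crat, the carnitine acetyltransferase, was called higher in tumors in OX40minus Tregs (0.66 ± 0.21, adjusted p = 0.0126) and was at 0.48 ± 0.21 in OX40plus Tregs (adjusted p = 0.0556).

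Mlycd encodes malonyl-CoA decarboxylase, which removes the metabolite that inhibits carnitine palmitoyltransferase 1. It fell in tumors, by 0.78 (SE 0.17) in OX40plus and by 0.52 (SE 0.17) in OX40minus Tregs on the log2 scale. Its means were 41.9 and 40.9 CPM in spleen OX40plus and OX40minus Tregs and 24.6 and 28.9 CPM in the matching tumor gates. No member of this step was called for OX40 in either tissue. Of the other carnitine palmitoyltransferase 1 genes, named here after their values were seen, Cpt1b had means of 4.59 and 6.13 CPM in spleen and 0.98 and 0.67 CPM in tumor OX40minus and OX40plus Tregs, and Cpt1c had means of 0.41 to 1.56 CPM in all groups. Cpt1c was called lower in OX40plus Tregs of tumors (-2.93 ± 0.83, adjusted p = 0.0107), where the groups overlapped and the means were 1.56 and 0.41 CPM in OX40minus and OX40plus samples. Slc25a20, the carnitine-acylcarnitine carrier of the inner membrane, rose in tumors by 0.92 ± 0.11 in OX40minus and 0.89 ± 0.11 in OX40plus Tregs.

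The first oxidation is carried out by acyl-CoA dehydrogenases, each for a range of chain lengths. Acadvl (chromosome 11, 70010183 to 70015411), the enzyme for very long chains, stood at 105, 88.8 and 87.7 CPM in spleen OX40minus and 111, 97.7 and 127 CPM in spleen OX40plus samples. It had 171, 182, 161 and 160.1 CPM in tumor OX40minus and 229.9, 249, 216 and 230.5 CPM in tumor OX40plus samples. The tumor gates did not overlap and both lay above the spleens, whose gates overlapped. The OX40 difference was 0.46 ± 0.09 in tumors (adjusted p = 0.000906) and 0.25 ± 0.11 in spleens (adjusted p = 0.21), and tumors exceeded spleens by 1.06 ± 0.10 and 0.85 ± 0.10 in OX40plus and OX40minus Tregs.

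The other dehydrogenase genes went in both directions between tissues. Acadl, for long chains, rose in tumors by 0.96 ± 0.10 in OX40plus and 0.89 ± 0.10 in OX40minus Tregs, to means of 136 and 116 CPM. Acadm, for medium chains, rose in OX40plus Tregs (0.42 ± 0.12, adjusted p = 0.00758), from a mean of 27.3 to 36.6 CPM. In OX40minus Tregs it was at 0.16 ± 0.12 (adjusted p = 0.275), and the interaction was not called (adjusted p = 0.392). Acads, for short chains, fell by 0.42 (SE 0.13) and by 0.38 (SE 0.13) in OX40plus and OX40minus Tregs, from means of 74.3 and 69.1 CPM to 55.5 and 52.9 CPM. Without spleen OX40plus mouse 3 or spleen OX40minus mouse 1 the respective call of Acads was lost (adjusted p = 0.068 and 0.128). Acad8, which acts on a breakdown product of valine, was at 20.9 to 35.6 CPM over all 14 samples and was called in no comparison.

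Hydration, the second oxidation and thiolysis of long chains are carried out by the mitochondrial trifunctional protein, which is built from the products of Hadha and Hadhb. These subunit genes differed between tissues in opposite directions. Hadha (chromosome 5, 30118304 to 30155162, minus strand) stood at 191, 169.7 and 157 CPM in spleen OX40minus and 187, 183 and 199 CPM in spleen OX40plus samples. It had 95.2, 101, 102 and 98.8 CPM in tumor OX40minus and 125, 137, 119 and 105 CPM in tumor OX40plus samples. All tumor samples were below all spleen samples, and within tumors the OX40plus gate was above the OX40minus gate. Hadha fell in tumors by 0.79 (SE 0.10) in OX40minus (adjusted p = 2.68e-06) and by 0.65 (SE 0.10) in OX40plus Tregs (adjusted p = 1.8e-05). Its OX40 difference in tumors was 0.29 ± 0.09 (adjusted p = 0.0169), a call that was lost without tumor OX40plus mouse 2 (adjusted p = 0.0581).

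Hadhb (chromosome 5, 30155248 to 30184593, plus strand) had 121, 114 and 111 CPM in spleen OX40minus and 111, 102 and 116 CPM in spleen OX40plus samples. Its level was 179, 188, 191 and 193 CPM in tumor OX40minus and 185, 177, 174 and 196 CPM in tumor OX40plus samples. Every tumor sample was above every spleen sample, and the gates overlapped in both tissues. Hadhb rose in tumors by 0.70 ± 0.08 in OX40minus (adjusted p = 9.02e-07) and 0.74 ± 0.08 in OX40plus Tregs (adjusted p = 3.68e-07). The ratio of Hadha to Hadhb CPM, not corrected for length, was 1.41 to 1.58 in spleen OX40minus, 1.68 to 1.79 in spleen OX40plus, 0.512 to 0.537 in tumor OX40minus and 0.534 to 0.775 in tumor OX40plus samples. Per kilobase of merged exons, Hadha was below Hadhb in all 4 groups, with means of 43.0 against 55.5 CPM per kb in spleen OX40minus, 47.2 against 52.8 in spleen OX40plus, 24.7 against 90.3 in tumor OX40minus and 30.3 against 88.0 in tumor OX40plus Tregs. By this measure the pair was closer in level in spleens than in tumors. Merged exons take in all annotated transcripts of a gene (4.017 kb for Hadha and 2.08 kb for Hadhb), and the ranking depends on these lengths. Which transcripts were expressed was not examined. Hadha was singled out for this comparison after its values were seen, and the ratio is a description with no test. Of the 31-base stretches in Hadhb transcripts, 23.3% also occur in another gene model, mostly the pseudogene Gm13910, so the level of Hadhb is the less certain of the pair.

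**Figure D4:**
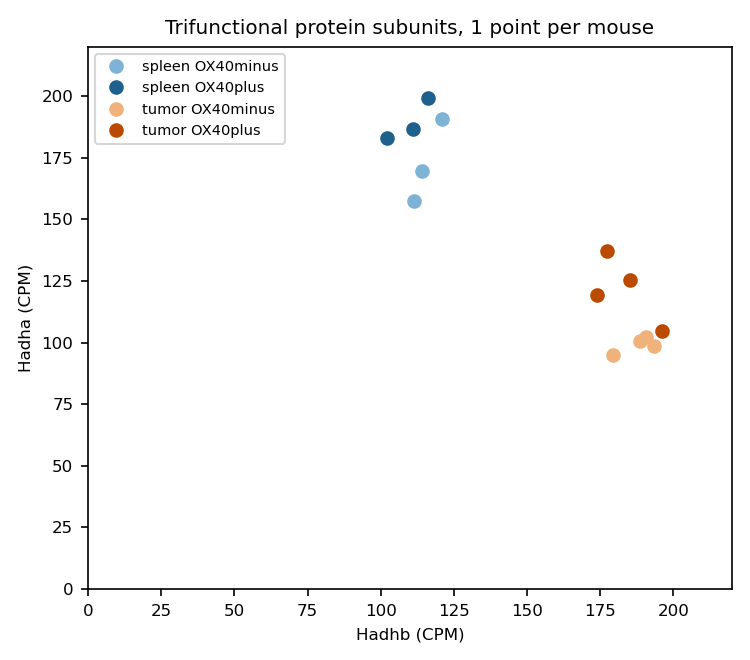
Level of Hadha (vertical axis, CPM) against Hadhb (horizontal axis, CPM), 1 point per mouse and gate. CPM is not corrected for gene length, so the axes compare samples and not the genes with each other; the 6 spleen samples lie at higher Hadha and lower Hadhb than the 8 tumor samples.

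The subunit genes are neighbours that are read outward from a shared promoter region. Their RefSeq start sites are separated by 272 bases. The 85 bases between the outermost annotated transcripts (GENCODE M21), chr5:30155163-30155247 on the plus strand of GRCm38, are shown because they lie upstream of both genes, with 2 GC boxes (GGGCGG, the core bound by Sp1 proteins) in capitals.
Hadha-Hadhb: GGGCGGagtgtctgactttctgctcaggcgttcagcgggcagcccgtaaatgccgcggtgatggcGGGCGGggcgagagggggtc
One box opens the stretch and the other lies near its end, and the sequence is from the RefSeq promoter table (GRCm38.p6). The files hold no binding or chromatin data for it.

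Other members act in the same steps. Acat1, the acetoacetyl-CoA thiolase, rose in tumors by 0.63 ± 0.11 in OX40plus and 0.55 ± 0.11 in OX40minus Tregs, to means of 92.4 and 85.5 CPM. Echs1, the short-chain enoyl-CoA hydratase, was called higher in tumors in OX40plus Tregs (0.32 ± 0.12, adjusted p = 0.0232) and was at 0.15 ± 0.12 in OX40minus Tregs (adjusted p = 0.296). With scaling by library size alone the call of Echs1 was lost (adjusted p = 0.0886). Hadh, the dehydrogenase for shorter chains, had 64.3 to 99.0 CPM over the 14 samples and was called in no comparison.

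Unsaturated fatty acids need auxiliary enzymes that move or remove double bonds. Ech1 (chromosome 7, 28825217 to 28832247), a dienoyl-CoA isomerase, stood at 95.2, 76.9 and 73.4 CPM in spleen OX40minus and 90.5, 75.6 and 108 CPM in spleen OX40plus samples. It had 206, 190.4, 211 and 188 CPM in tumor OX40minus and 239.5, 236, 227 and 266 CPM in tumor OX40plus samples. Per kilobase of merged exons, Ech1 had the highest level of the 29 members in tumor OX40minus Tregs (157 CPM per kb) and was exceeded by Etfb alone in tumor OX40plus Tregs (191 against 221 CPM per kb). Tumors exceeded spleens by 1.42 ± 0.12 in OX40plus and 1.29 ± 0.12 in OX40minus Tregs. Its OX40 difference in tumors was small, 0.28 ± 0.11 (adjusted p = 0.0485), and was lost with the mouse as a replicate block (adjusted p = 0.0777) and without any single tumor sample (adjusted p = 0.0552 to 0.116).

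Eci2, an enoyl-CoA isomerase, rose in tumors by 0.32 ± 0.11 in OX40plus (adjusted p = 0.0161) and 0.28 ± 0.11 in OX40minus Tregs (adjusted p = 0.031). The latter call was lost with mouse number as a replicate block (adjusted p = 0.0631), and 13.6% of the 31-base stretches of Eci2 occur in another gene model, mostly Eci3. Decr1, the dienoyl-CoA reductase, was called lower in tumors in OX40plus Tregs (-0.44 ± 0.17, adjusted p = 0.0307), where the groups overlapped. Without spleen OX40plus mouse 3 it was at -0.27 (adjusted p = 0.186).

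Electron transfer from the dehydrogenases to the respiratory chain needs the electron transfer flavoprotein, built from the products of Etfa and Etfb, and its oxidoreductase, encoded by Etfdh. Etfb (chromosome 7, 43444083 to 43457800) had 51.3, 45.1 and 41.0 CPM in spleen OX40minus and 54.3, 53.1 and 75.0 CPM in spleen OX40plus samples. It reached 94.5, 118, 103 and 97.2 CPM in tumor OX40minus and 186, 191, 190.0 and 223 CPM in tumor OX40plus samples. No gates overlapped in either tissue, and every tumor sample was above every spleen sample. Etfb had the smallest adjusted p of the members in the tumor OX40 comparison (0.94 ± 0.12, adjusted p = 1.7e-05), and its OX40 difference in spleens was 0.40 ± 0.14 (adjusted p = 0.101). With scaling by library size alone the difference in spleens passed (0.44, adjusted p = 0.0421). Tumors exceeded spleens by 1.71 ± 0.13 in OX40plus and 1.17 ± 0.13 in OX40minus Tregs. Of the 31-base stretches of Etfb, 49.9% occur in another gene model, mostly the overlapping model Gm45233, so its absolute level is uncertain.

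Etfa (chromosome 9, 55454508 to 55512243) stood at 58.9, 49.8 and 47.7 CPM in spleen OX40minus and 56.3, 54.9 and 66.0 CPM in spleen OX40plus samples. It had 99.0, 116, 104 and 105 CPM in tumor OX40minus and 144, 151, 152 and 198 CPM in tumor OX40plus samples. As for Etfb, the tumor gates did not overlap, but the spleen gates did. The OX40 difference was 0.60 ± 0.11 in tumors (adjusted p = 0.000466) and 0.18 ± 0.13 in spleens (adjusted p = 0.58), and tumors exceeded spleens by 1.44 ± 0.12 in OX40plus and 1.03 ± 0.12 in OX40minus Tregs. Etfdh rose in tumors by 1.15 ± 0.11 and 0.92 ± 0.11, from 38.9 to 42.0 CPM in the 6 spleen samples to 72.3 to 107 CPM in the 8 tumor samples. Its OX40 difference in tumors was 0.22 ± 0.10 (adjusted p = 0.112).

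The promoters of Etfa, Etfb and Acadvl are shown as examples. These genes were among the members with the smallest adjusted p values in the tumor OX40 comparison, as were Acsl5 and Fabp5, whose promoters are not shown. Each stretch covers the 250 bases before the RefSeq start site, on the gene's own strand (RefSeq, GRCm38.p6): chr9:55512244-55512493 on the minus strand for Etfa, chr7:43443822-43444071 on the plus strand for Etfb and chr11:70015429-70015678 on the minus strand for Acadvl. Capitals mark a match to the NRF1 motif in Etfb and to the nuclear receptor half-site in Acadvl.
Etfa: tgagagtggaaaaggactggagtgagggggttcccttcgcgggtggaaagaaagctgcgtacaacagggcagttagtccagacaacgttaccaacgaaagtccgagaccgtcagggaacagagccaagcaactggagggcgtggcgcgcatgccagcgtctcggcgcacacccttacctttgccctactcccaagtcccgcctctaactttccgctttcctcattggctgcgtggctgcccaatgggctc
Etfb: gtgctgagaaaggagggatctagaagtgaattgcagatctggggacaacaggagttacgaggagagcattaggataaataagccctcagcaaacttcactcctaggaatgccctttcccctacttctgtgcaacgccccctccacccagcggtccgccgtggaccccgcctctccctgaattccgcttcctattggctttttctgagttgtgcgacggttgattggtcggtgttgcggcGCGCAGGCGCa
Acadvl: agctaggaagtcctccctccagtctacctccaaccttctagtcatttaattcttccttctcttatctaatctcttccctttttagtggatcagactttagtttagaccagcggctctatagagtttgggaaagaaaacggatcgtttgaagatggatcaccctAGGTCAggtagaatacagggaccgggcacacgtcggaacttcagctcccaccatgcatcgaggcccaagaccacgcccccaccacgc
The NRF1 match begins 11 bases before the Etfb start site, the half-site 87 bases before that of Acadvl, and none of the motifs searched was in the Etfa window.

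Motifs were searched on both strands of such windows for 24 of the 29 members, which had 25 windows, and for all 32851 windows of the table. The NRF1 motif (GCGCA, any base, then GCGC) was found for 2 members (Etfb and Etfdh) and in 3.74% of all windows. The half-site AGGTCA, bound by PPAR and other nuclear receptors, was found for 4 members (Acadm, Acadvl, Cd36 and Echs1) and in 14% of all windows. No member had the longer motifs that contain it, TNAAGGTCA of estrogen-related receptors (1.14% of all windows) or the PPAR direct repeat, which is AGGTCA, any base, then AGGTCA (0.0335%). The GC box GGGCGG was found for 17 members, Hadha and Hadhb among them, and in 32.7% of all windows. A match describes letters, not a bound site.

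The members of the peroxisomal oxidation cycle, Acaa1a and Hsd17b4, were called in no comparison, unlike the peroxisomal Crot described above. Acaa1a, the peroxisomal thiolase, had 122 to 164 CPM over all 14 samples and the highest level per kilobase of merged exons of all members in both spleen groups (84.9 CPM per kb in OX40minus and 76.3 in OX40plus Tregs). In tumors its mean was 140 and 132 CPM in OX40minus and OX40plus Tregs. Hsd17b4, the bifunctional enzyme of peroxisomal oxidation, had 53.6 to 78.1 CPM, and without tumor OX40plus mouse 4 it passed as higher in tumors in OX40plus Tregs (0.24, adjusted p = 0.0337). Of the 31-base stretches of Acaa1a, 18.1% also occur in other gene models, mostly its close copy Acaa1b, which behaved differently: Acaa1b was at 0.22 to 0.75 CPM in spleen OX40plus, 0.25 to 0.26 in spleen OX40minus, 0.96 to 1.92 in tumor OX40minus and 9.34 to 18.7 in tumor OX40plus samples. Its OX40 difference in tumors was 3.29 ± 0.44 (adjusted p = 2.68e-05).

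Whether the OX40 difference itself was unlike in tumors and spleens was tested as an interaction. No member was called by limma or by limma-voom, where 4.51% of all genes were called higher and 6.36% lower. At an unadjusted p under 0.05 there were 5 members: Acsl5 (0.45 ± 0.14), Acsl3 (1.21 ± 0.38), Etfb (0.54 ± 0.18) and Etfa (0.42 ± 0.17) with the more positive difference in tumors, and Acot7 (-0.36 ± 0.12) with the more positive one in spleens. The share of all genes at this cutoff was not counted, so the number has no background beside it. For Acsl3 the OX40 difference was 0.32 ± 0.25 in tumors and -0.90 ± 0.29 in spleens, neither of them called. The adjusted p values of the 5 interactions ranged from 0.0512 to 0.126. With relative log expression scaling Acsl3, Acsl5 and Etfb passed (adjusted p = 0.047, 0.0299 and 0.046), and with library size alone Acot7 did (adjusted p = 0.0196).

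Genes that act beside the members did not move as one group. In tumors, 8 of 36 tested genes of a list of other fatty acid oxidation genes were higher and 6 lower in OX40plus Tregs, 3 of 28 genes of uptake, activation and storage were higher and 9 lower, and 3 of 27 regulators were higher and 8 lower. In the same comparison 18.5% of all genes were called higher and 20.0% lower, and the first list was near these shares. Acsbg1 (-0.98 ± 0.11), Acss1 (-1.28 ± 0.14) and Acss2 (-1.04 ± 0.11), which activate very long chains and acetate, were among those that fell. In spleens, Slc22a5, Lpl, Lipa, Acss1, Acss2 and Pdk1 were among the genes of these lists that were lower in OX40plus Tregs, and Acot11, named after its values were seen, was higher. Lpl went from a mean of 63.1 to 5.97 CPM and Lipa from 139.9 to 64.9 CPM, in the comparison in which 12 of 13 macrophage or monocyte markers fell, and the part of other cells in this was not tested. For TCA cycle genes, which burn the acetyl-CoA that oxidation yields, 7 of 14 were higher and 0 lower in tumor OX40plus Tregs, where 18.5% of all genes were higher and 20.0% lower. In spleens none of the TCA cycle genes was called by limma or limma-voom, with 0 at an unadjusted p under 0.05, where limma called 4.39% of all genes higher and 3.59% lower. Tumors exceeded spleens in 11 of the 14 TCA cycle genes in OX40plus and in 9 in OX40minus Tregs, Idh3a with the smallest adjusted p in both (1.77 ± 0.08 and 1.21 ± 0.08). None of the 14 was lower with limma, with limma-voom or at an unadjusted p under 0.05. Among all genes, limma called 30.3% higher and 34.2% lower in OX40plus Tregs, and 29.7% and 29.3% in OX40minus Tregs. Of the 36 tested genes of other fatty acid oxidation, 9 were called higher and 12 lower in tumors among OX40plus Tregs. Among OX40minus Tregs 7 of them were higher and 10 lower, so this list did not share the tumor excess of the members.

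The lipid-sensing nuclear receptors differed from each other. Pparg rose in tumors, with 6.72 to 10.0 CPM in spleen OX40minus, 5.55 to 9.41 in spleen OX40plus, 15.5 to 20.5 in tumor OX40minus and 50.6 to 61.0 in tumor OX40plus samples. Its OX40 difference was 1.69 ± 0.18 in tumors (adjusted p = 3.85e-06) and -0.10 ± 0.21 in spleens (adjusted p = 0.936), and the interaction was called (1.80 ± 0.28, adjusted p = 0.000924). Ppard had 2.78 to 4.57 CPM in spleens and 0 to 0.25 CPM in tumors, close to the level of 3 counts. Ppargc1a, a coactivator of mitochondrial genes, had means of 0.35 to 1.19 CPM and was called in no comparison, and Ppara was not analysed here.

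Genes of lipid storage had large tissue differences. Dgat1, which makes triglycerides, stood at 45.7 to 58.4 CPM in spleen samples, 652 to 691 in tumor OX40minus and 378 to 454 in tumor OX40plus samples, and Plin2, a lipid droplet coat protein, at 26.2 to 48.4, 99.3 to 118 and 146 to 159.5 CPM. Dgat1 thus fell with OX40 in tumors (-0.72 ± 0.08, adjusted p = 7.78e-06) while Plin2 rose (0.50 ± 0.12, adjusted p = 0.00363). Stk11, a kinase that activates AMP-activated protein kinase, fell in tumors by 2.59 (SE 0.11) in OX40plus and by 2.19 (SE 0.11) in OX40minus Tregs.

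Other signals moved with the same groups. Of 14 cell cycle genes, 14 were higher in tumor and 11 in spleen OX40plus Tregs, and their summed level was 1003 to 1233, 1569 to 2336, 2280 to 2815 and 5065 to 5610 CPM in spleen OX40minus, spleen OX40plus, tumor OX40minus and tumor OX40plus samples. Of 13 macrophage or monocyte markers, 12 were lower in OX40plus Tregs in each tissue. In tumors, 4 of 6 dendritic cell, 5 of 8 NK cell and 3 of 6 neutrophil markers were also lower in OX40plus Tregs. Among all genes, 18.5% were called higher and 20.0% lower in OX40plus Tregs of tumors, and 4.39% and 3.59% in those of spleens. Dendritic cell markers summed to 134 to 193 CPM in tumor OX40minus and 37.9 to 67.2 CPM in tumor OX40plus samples, NK cell markers to 5.69 to 7.96 and 0.98 to 2.81 CPM, and neutrophil markers to 190.4 to 267 and 20.1 to 46.6 CPM. In the spleen OX40minus and OX40plus samples these sums were 43.1 to 49.1 and 14.6 to 19.2 CPM for dendritic cells, 20.3 to 21.2 and 15.96 to 24.5 CPM for NK cells, and 56.0 to 76.6 and 33.2 to 35.6 CPM for neutrophils. Between tissues, 6 of 6 B cell markers were lower in tumors in both gates, from 389 to 577 CPM summed in spleens to 0.36 to 4.3 CPM in tumors, where Pax5 was at or below 3 counts. Among all genes, 24.8% were called lower in tumors in both gates. The 7 melanocyte markers summed to 12.6 to 22.4 CPM in spleens and 72.4 to 192 CPM in tumors, and Sox10 and Slc45a2 were at or below 3 counts in spleens. The part of cycling cells and of these other cell types in the differences of the members and of the related lists was not tested.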

How the data were processed

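RNA was sequenced from 28 libraries of sorted Tregs. The submitters' processing notes name the mouse build mm10 and the tools kallisto, limma and bcl2fastq 2.19. Scaling, the step from transcripts to genes and strand use were not given in the sources used here. Values as deposited are log2 CPM in the form of limma's voom, with 0.5 added to each count, as the repeated lowest value of each library shows. Its inversion gave effective library sizes, estimated counts and the CPM printed. The 2 libraries of a mouse and gate were averaged: over genes with 20 or more counts, the median chi-square was 0.496 to 0.573 within these pairs and 1.38 to 13 between mice. Mice are the replicates.

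With limma 3.58.1 in R 4.3.3, a linear model with 1 term per group was fitted to all 14 samples, with trended empirical Bayes moderation of the variances. Genes needed 0.379 CPM in 3 samples and 15 estimated counts in total. Adjusted p values are Benjamini-Hochberg over 12519 genes, and log2 differences understate changes of genes near 0. The fit was tested on simulated data. Members and lists were chosen with earlier results of these data known. Values per sample were given for up to 5 called members with the smallest adjusted p in each comparison and for Cd36 and Fabp5, and up to 3 called genes per pathway list and comparison could be named. Titles give both gates of a tissue the same mouse numbers, which pairs them by animal. Deviations of same-numbered samples from their group means correlated at -0.0183 to 0.0593 (4 tumor pairs) and -0.48 to 0.461 (3 spleen pairs); the number may not pair animals across tissues, where r was -0.105 to 0.166. Gene positions and 31-base stretches are from GENCODE M21 (GRCm38), and promoters from RefSeq. Levels per kilobase use the merged exons of all annotated transcripts of a gene, so rankings by them depend on that length. Values after ± are standard errors of the fit and include the spread among mice. The level of 3 counts covers counting error only. Some genes are not reported here.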

Additional observations from a re-analysis of the deposited data

Results flagged for a closer look

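Of 58 group and gene combinations examined for a sample far from the others of its group, 4 were found among the members, where chance gives about 1 in 20. Acsl5 was at 206 CPM in tumor OX40minus mouse 4, against 268 to 271 CPM in the other 3 mice. Eci2 was at 66.6 CPM in tumor OX40minus mouse 1, against 55.6 to 56.9 CPM. In tumor OX40plus mouse 4, Etfa was at 198 CPM against 144 to 152 CPM, and Etfb at 223 CPM against 186 to 191 CPM.

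For 10 genes of the related lists, the OX40 difference was unlike in tumors and spleens by the interaction test (log2, tumor minus spleen). It was more positive in tumors for Acaa1b (2.94), Pparg (1.80), Slc22a5 (1.08), Plin2 (0.92), Pdk1 (0.62) and Idh3a (0.56). It was more negative for Pdk2 (-1.25), Acsbg1 (-1.06), Acox3 (-0.87) and Dgat1 (-0.81).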

How the results depend on the processing

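Under 24 alternatives, 38 of the 52 called member differences kept their call in every one (5 of 7 for OX40 in tumors, 0 of 2 in spleens, 18 of 23 between tissues in OX40plus and 15 of 20 in OX40minus Tregs). No called difference changed sign, 11 that were not called passed under at least 1 alternative, and 80 sign changes were between values not called in either fit. With the mouse as a replicate block, 1 member was higher with OX40 in spleens in place of 2; among the members it changed the calls of Acot7, Ech1 and Eci2 given above and no other, and the interaction of Pdk1 was lost (adjusted p = 0.0864). The count of members higher with OX40 in spleens was 0 with limma-voom and 0 to 2 without 1 sample, and Etfb passed there with library size alone (adjusted p = 0.0421); 1 member (Acsl3) was lower with the 2 spleen groups fitted alone and 1 with rep1 libraries only. Members lower in tumors numbered 2 to 4 in OX40plus and 1 to 3 in OX40minus Tregs without 1 sample. Without spleen OX40plus mouse 3, Acads and Decr1 were lost in OX40plus Tregs, and Mlycd was lost in OX40minus Tregs without spleen OX40minus mouse 1 (adjusted p = 0.0551), spleen OX40minus mouse 3 (0.0561) or tumor OX40minus mouse 3 (0.0519). For the interaction, members higher numbered 3 with relative log expression scaling, 1 with log2(CPM + 1), 2 with a minimum of 1 CPM in 3 samples, 2 with rep1 libraries only and 0 to 2 without 1 sample, and members lower numbered 1 with library size alone. The causes were not tested. Fitting the groups alone was not run for the interaction. Library size alone moved the median of all genes by -0.101 between tissues in OX40plus Tregs and by less than 0.1 elsewhere. Cd36, Ppard, Ppargc1a, Cpt1b and Cpt1c had samples near the level of 3 counts, where depth limits the measure. Cd36 also differed widely between samples of a group, from 0.036 to 15 CPM in tumor OX40minus Tregs.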
